A study of Mus musculus with 3 samples.

Results

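RNA contacts of Tra2β that lie antisense to annotated genes were described in testes of adult wild type mice. A position was a member when no GENCODE vM39 gene covered it on its own strand but a gene body covered it on the opposite strand. Of 1354357 crosslinked positions over 3 libraries, 103278 met this rule. They carried 20477, 67243 and 23224 crosslinks in replicates 1, 2 and 3, out of 348033, 619571 and 488719. Here a crosslink is 1 unique cDNA whose end marks a nucleotide touched by the protein.

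The libraries came from iCLIP (individual-nucleotide crosslinking and immunoprecipitation), in which RNA is linked to bound protein by ultraviolet light and recovered with an antibody. All 3 were replicates of 1 group, testes of wild type adults with a polyclonal anti-Tra2b antibody. The testes were minced to release germ cells before crosslinking, and each library can also hold somatic cells. No input or control antibody library was analysed here, and every comparison is between kinds of sequence within a library. No test was run on the 3 libraries, because the smallest two-sided p that an exact sign-flip test can reach with them is 0.25.

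Tra2β, a splicing regulator related to the SR proteins, recognises GAA-rich RNA. A crosslink antisense to a gene reports RNA made from the other strand of that gene. Such RNA is known to arise from unannotated antisense transcripts and from transcription that runs past the end of a neighbouring gene. Short repeats inside introns are another source. Reads of an RNA with many genomic copies can also be placed at a copy that did not make it.

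The testis label was checked against marker genes. Own-strand crosslinks fell on 10 of 10 germ cell markers in every library (877, 550 and 1437 crosslinks in replicates 1, 2 and 3). Sertoli cell markers had crosslinks in all libraries for 3 of 5 genes (94, 76 and 111), and Leydig cell markers for 4 of 5 (40, 46 and 56). Markers of the epididymis, the duct beside the testis, had 0, 15 and 2. Replicate 2 stood apart. Its antisense density was 49.7 crosslinks per Mb of antisense bases, against 15.1 in replicate 1 and 17.2 in replicate 3. These densities are not scaled for depth, and replicate 2 was the deepest library. Of its crosslinks, 10.9% were antisense, against 5.88% in replicate 1 and 4.75% in replicate 3. The nucleotide at its antisense crosslinks was T at 28.9% of positions and A at 29.2%, close to all antisense bases (27.6% T and 29.9% A), whereas T made up 44.5% and 44.9% in replicates 1 and 3 and A 17.7% and 17.8%. Values are therefore given for each library, with means also without replicate 2 where they rest on it.

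Antisense crosslinks were thinly spread, with a small set of dense clusters. Neighbouring positions up to 20 nt apart on 1 strand were joined over the libraries, which gave 95822 clusters, of which 95.3% were a single position. Only 1 cDNA had been counted at 98.7%, 98.3% and 97.8% of antisense positions in replicates 1, 2 and 3. Crosslinks in all 3 libraries were found in 178 clusters (0.186% of clusters), and at least 3 in each library in 36 (0.0376%). The 36 clusters held 5.10%, 5.83% and 7.33% of all antisense crosslinks. The same joining in own-strand introns gave 573560 clusters, of which 1810 had crosslinks in all libraries (0.316%) and 68 at least 3 in each (0.0119%). In sequence with no gene on either strand it gave 139974, with 373 (0.266%) and 78 (0.0557%).

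Of the 10 clusters with the most crosslinks, 9 are shown here by their most crosslinked 30 nt in GRCm39, because some share sequence. Each is read 5′ to 3′ on the crosslinked strand, with GAA, the core of Tra2β sites, in capitals.
Cluster 1, chr11:108902749-108902778, minus strand: tcagatccccaaatccagagtggcggagat
Cluster 2, chr3:5925756-5925785, plus strand: cacgccggcctcgcgggccgccggtGAAat
Cluster 3, chr6:128820291-128820320, plus strand: ggcagaggcaggaggatctggagttcgagg
Cluster 4, chrX:86281955-86281984, plus strand: tggtgcctcagtcgGAAcgggacgggagcg
Cluster 5, chr13:45023132-45023161, minus strand: cagtgggccacttttggtaagcaGAActgg
Cluster 6, chr9:94725366-94725395, minus strand: tttgctGAAggagacagaggcaggaggatc
Cluster 7, chr7:130436147-130436176, plus strand: gggggaggcgggggcggcgagccccgaggg
Cluster 8, chr12:119288943-119288972, minus strand: cacacgccggtaggacttgctGAAggaggc
Cluster 10, chr12:73665394-73665423, minus strand: ctgagacaaaaaaaaaaaaaaaaaaaaaaa

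Cluster 1 led by far and was the most crosslinked of the 10 in each library. It covered 408 nt of the minus strand inside an intron of Gm36876, a long non-coding RNA gene, and had 555, 1837 and 540 crosslinks in replicates 1, 2 and 3. This was 1595, 2965 and 1105 CPM (crosslinks scaled to a library total of 1000000), a mean of 1888 ± 964 (SD, n = 3). A second cluster of 29 nt lay close by on the same strand, with 3, 25 and 3 crosslinks. Together they held 2963 of the 2965 antisense crosslinks of Gm36876, and the gene itself had 1, 6 and 0 on its own strand.

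Clusters 2, 4, 5 and 7 were dense in replicate 2 and sparse in the other libraries. Cluster 2, opposite an intron of the non-coding Gm37350, had 62, 761 and 76 crosslinks. Cluster 4 had 3, 341 and 9, opposite an intron of Il1rapl1, an interleukin receptor accessory protein relative of synapses. Cluster 5 had 9, 287 and 15, opposite an intron of Jarid2, a cofactor of the Polycomb complex that methylates histone H3. Cluster 7 had 12, 112 and 19, opposite an intron of Fgfr2, a fibroblast growth factor receptor whose annotated body here runs for 2961609 bp. In CPM, replicate 2 was the highest library at each of these 4.

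Clusters 3, 6 and 8 had the opposite order of libraries. Cluster 3 touched an exon of the non-coding Gm44066, 288 bp from its start, and had 78, 16 and 305 crosslinks. Cluster 6 had 51, 12 and 118, opposite an intron of Slc9a9, an endosomal sodium and proton exchanger. Cluster 8 had 19, 23 and 71, opposite an intron of Macc1, a regulator of the MET receptor gene. Replicate 3 was the highest library in CPM at all 3 and replicate 2 the lowest. Cluster 10, a run of A opposite an intron of Prkch (a protein kinase C), had 5, 80 and 14. Over its crosslinked positions, the 31 bases that follow occur at a median of 81151 places in the genome.

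**Figure D1:**
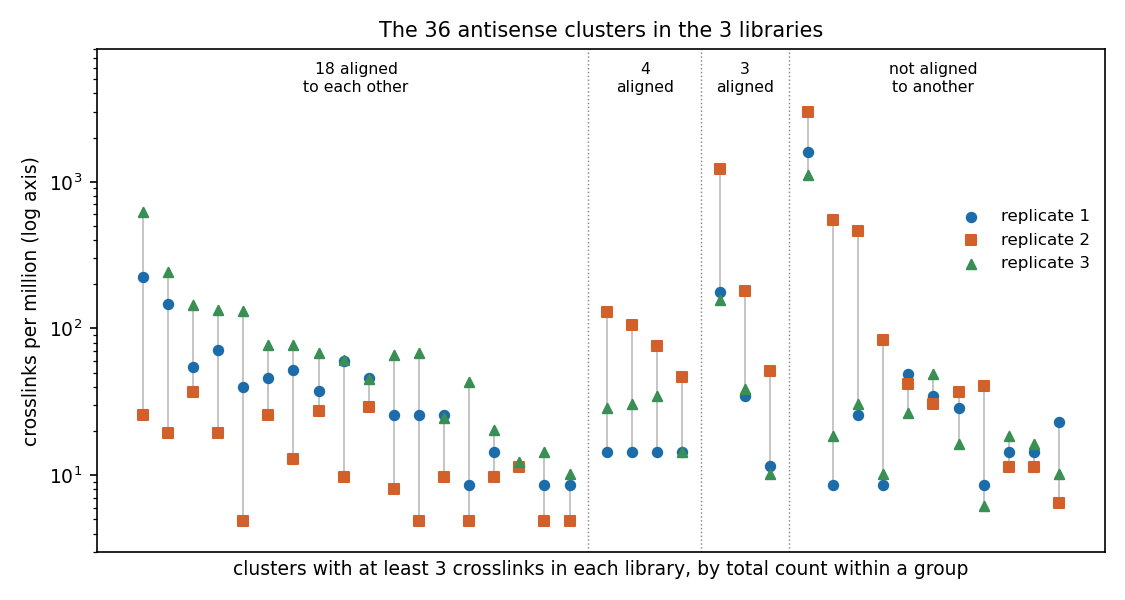
CPM (log axis) of the 36 antisense clusters with at least 3 crosslinks in each library; each column is a cluster, each point a library, and grey lines join the lowest and highest library. The 18 clusters that aligned to each other were mostly highest in replicate 3 and the groups of 4 and 3 were highest in replicate 2.

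Clusters that share a sequence mostly had the same highest library. When the 36 clusters, with 15 nt added on both sides, were aligned to each other on the crosslinked strand, 18 were linked into 1 group, among them clusters 3, 6 and 8. This group held 316, 167 and 910 crosslinks in replicates 1, 2 and 3, or 908, 270 and 1862 CPM in sum, and replicate 3 was the highest library at 16 of the 18 and replicate 2 at 0. A group of 4 A-rich clusters, with cluster 10, held 20, 221 and 53 crosslinks and was highest in replicate 2 at 4 of 4. A group of 3, clusters 2, 7 and 26, held 78, 905 and 100 and was highest in replicate 2 at 3 of 3. The other 11 clusters, with clusters 1, 4 and 5, aligned to none of the rest, and among them 6 were highest in replicate 2 and 3 in replicate 3. The members of a group share their sequence, so they are not separate observations.

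Among annotated transcripts on the crosslinked strand, the best match of the group of 18 was Gm61219, a non-coding RNA, for 10 clusters and Nfkbie, an inhibitor of NF-kappaB, for 5. Cluster 8 matched Gm61219 over 96 nt at 93.8% identity and cluster 3 matched Nfkbie over 74 nt at 95.9%. For 10 of the 36 clusters, among them clusters 4, 5 and 7, no match was found. Consensus sequences of repeats and the RNA of the large ribosomal subunit were not among the sequences aligned. Whether these clusters are genomic copies of a repeated or ribosomal RNA made elsewhere was therefore not tested, and the counts at a cluster need not be RNA of that locus.

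Sequence around antisense crosslinks was also searched for the B box, the internal promoter element of tRNA genes and of repeats derived from RNA polymerase III transcripts. Spelled as GTTCGANNC on the crosslinked strand, it was within 100 nt of 1.26%, 0.793% and 2.02% of antisense positions in replicates 1, 2 and 3, against 0.482% of antisense bases. Own-strand introns had 0.410%, 0.439% and 0.503%, and sequence without a gene 1.39%, 0.781% and 2.06%. Antisense positions exceeded own-strand introns in all 3 libraries. Of the group of 18 clusters, 7 had this word within 100 nt.

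Per base, antisense sequence was crosslinked far less than own-strand introns. The mean density was 27.3 ± 19.4 crosslinks per Mb (SD, n = 3) and 16.2 without replicate 2, against 111, 212 and 126 in own-strand introns of replicates 1, 2 and 3. Sequence with no gene on either strand had 13.3, 40.4 and 16.03 per Mb. Antisense density was slightly higher than that in each of the 3 libraries, at 15.1, 49.7 and 17.2 per Mb. Densities are not scaled for depth, so their SD between libraries also holds depth and does not measure this difference within a library. The antisense share of all crosslinks was 7.16% ± 3.25 on average and 5.32% without replicate 2, and 25.5% of the bases of both strands meet the rule. Bases followed by 31 bases with another copy in the genome made up 13.4% of antisense sequence and held 4.24%, 8.71% and 7.04% of the antisense crosslinks.

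Antisense crosslinks were most dense just past the ends of genes on their own strand, and the density was lower with every step of distance. In the first kb past an own-strand gene end it was 62.6, 143 and 74.3 crosslinks per Mb in replicates 1, 2 and 3. From 5 to 10 kb it was 28.1, 83.3 and 29.8, from 20 to 50 kb 13.9, 48.1 and 16.1, and beyond 100 kb 6.33, 30.2 and 7.55. The first kb was 9.89, 4.73 and 9.85 times as dense as sequence beyond 100 kb, a mean of 8.16 ± 2.97 (SD, n = 3) and 9.87 without replicate 2. Without the 36 clusters the mean was 9.06 ± 3.25. The order of the bins was the same in all 3 libraries and replicate 2 had the smallest contrast.

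**Figure D2:**
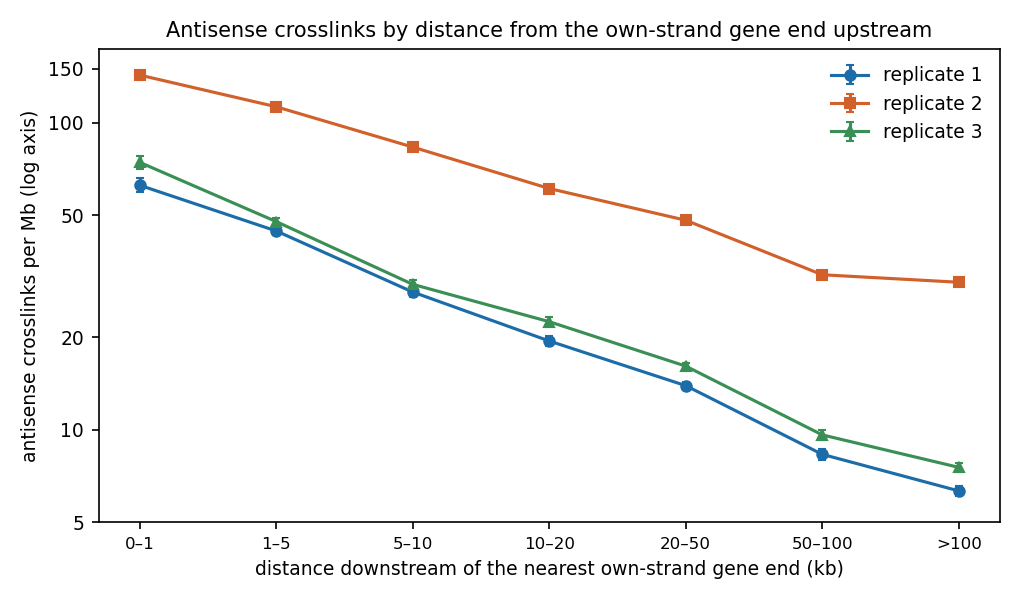
Density of antisense crosslinks (crosslinks per Mb of antisense bases, log axis) by distance downstream of the nearest gene end on the crosslinked strand (kb); points are libraries and bars are 95% Poisson counting error. Each library declined from the first bin (62.6, 143 and 74.3 per Mb) to the last (6.33, 30.2 and 7.55 per Mb).

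Within 5 kb past an own-strand gene end lay 25.8%, 19.4% and 25.1% of antisense crosslinks, against 8.12% of antisense bases. The fold was 2.89 ± 0.43 (SD, n = 3) and higher than 1 in 3 of 3 libraries. The 1 kb before an own-strand gene start was also raised, with 4.55%, 3.76% and 4.93% of crosslinks on 2.09% of bases, a 2.11-fold ± 0.28 excess. Of the antisense crosslinks, 71.4%, 77.9% and 71.6% lay in neither place, on 90.1% of bases. Which RNA these crosslinks came from was not tested.

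Seen from the opposite strand, the start of the gene was the densest region of the opposite gene. Antisense crosslinks within the first kb of the opposite gene reached 27.3, 67.7 and 37.0 per Mb, antisense to exons 23.5, 65.2 and 24.7 and antisense to introns 13.8, 47.5 and 15.7. Relative to introns, the first kb was 1.92 ± 0.47 times as dense (SD, n = 3; 2.16 without replicate 2 and 1.72 ± 0.26 without cluster 3) and exons 1.55 ± 0.17 times (1.64 without replicate 2). Both ratios were above 1 in 3 of 3 libraries. Since introns make up 87.8% of antisense bases, they still held 80.3%, 83.9% and 80.2% of the crosslinks, with 14.0%, 11.8% and 13.0% antisense to exons and 5.70%, 4.31% and 6.81% in the first kb. When positions near own-strand gene ends or starts were left out, the ratio of exons to introns was 1.297.

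With distance into the opposite gene the density was lower, falling over the first 2 kb and again past 50 kb. It was 30.6, 68.6 and 44.7 crosslinks per Mb in the first 500 bp, 23.5, 66.8 and 28.4 from 500 to 1000 bp and 21.5, 59.3 and 23.5 from 1 to 2 kb. From 2 to 20 kb it stayed at 16.8 to 17.8 in replicate 1, 52.4 to 53.5 in replicate 2 and 19.3 to 20.8 in replicate 3. From 50 to 100 kb it was 12.7, 43.7 and 13.9, and beyond 100 kb 11.7, 40.6 and 12.7. Replicate 2 had a second high value from 20 to 50 kb, 58.9 per Mb. Clusters 1, 2 and 10 lie in this bin, with 1837, 761 and 80 of its crosslinks. In replicate 3 cluster 3 carried much of the first bin, which without it was 27.2, 67.8 and 31.1 per Mb, closer to the next bin. The first kb over sequence more than 50 kb from the start was 2.24 ± 0.60 (SD, n = 3) and 2.00 ± 0.34 without cluster 3, a smaller contrast than that past own-strand gene ends.

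**Figure D3:**
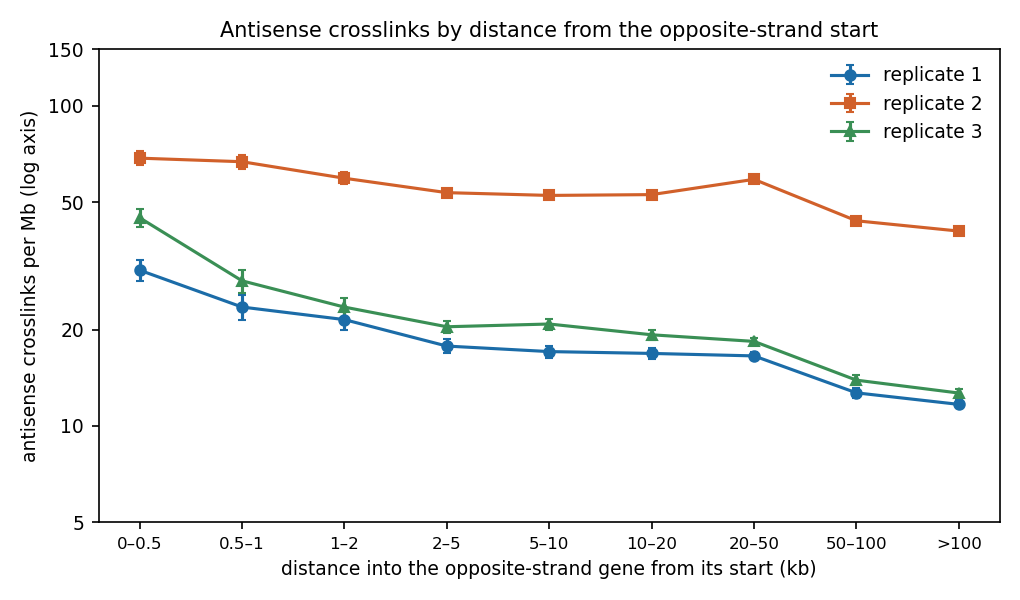
Density of antisense crosslinks (crosslinks per Mb of antisense bases, log axis) by distance into the opposite-strand gene from its nearest start (kb); points are libraries and bars are 95% Poisson counting error. The first 500 bp was the densest bin in each library, at 30.6, 68.6 and 44.7 per Mb, with 27.2, 67.8 and 31.1 left without cluster 3.

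The X chromosome had few antisense crosslinks. Its density was 3.67, 29.3 and 4.20 per Mb of antisense bases, against 15.7, 51.0 and 17.9 on autosomes, a ratio of 0.233, 0.574 and 0.235. In own-strand introns the ratio of X to autosomes was 0.210, 0.312 and 0.262, close to the antisense ratio in replicates 1 and 3 and well below it in replicate 2. Without the 36 clusters, 2 of which lie on the X chromosome, the antisense ratio was 0.238, 0.478 and 0.240. The mitochondrial genome, whose strands are both transcribed in full, had 46, 5 and 41 antisense crosslinks on 15345 antisense bases.

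GAA pentamers of the kind Tra2β binds were more frequent within 30 nt of antisense crosslinks than farther away on the crosslinked strand, and over this window their reverse complements had ratios near 1. The pentamer GAAGA was 1.34, 1.56 and 1.29 times as frequent within 30 nt of antisense crosslinks as 31 to 100 nt away, a mean of 1.40 ± 0.15 (SD, n = 3; 1.31 without replicate 2). AGAAG had a ratio of 1.31 ± 0.11 and AAGAA of 1.27 ± 0.12. Of the reverse complements, TCTTC had a ratio of 0.970 ± 0.054, CTTCT of 0.939 ± 0.069 and TTCTT of 1.02 ± 0.15 (1.09, 0.845 and 1.11 in replicates 1, 2 and 3). The ratio of GAAGA was 1.39 ± 0.23 in own-strand introns, 1.34 ± 0.12 in sequence with no gene and 1.87 ± 0.25 in own-strand exons. The antisense ratio thus lay within the spread of introns and below that of exons, and it was 1.39 without the 36 clusters.

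By position, the 3 purine-rich pentamers were most frequent 13, 12 and 15 nt downstream of the crosslink in replicates 1, 2 and 3, at 1.26%, 3.25% and 1.27% of positions. This was 1.60, 2.35 and 1.52 times the mean level more than 50 nt away. At the crosslink itself they were at 0.772%, 1.59% and 0.857%, lower than at the peak in every library. Their reverse complements were highest at the crosslink itself, at 0.979%, 0.561% and 0.858%, where T is the most frequent base in replicates 1 and 3. This was 1.80, 1.24 and 1.59 times their level more than 50 nt away, higher than the fold of the purine-rich pentamers in replicates 1 and 3 and lower in replicate 2.

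**Figure D4:**
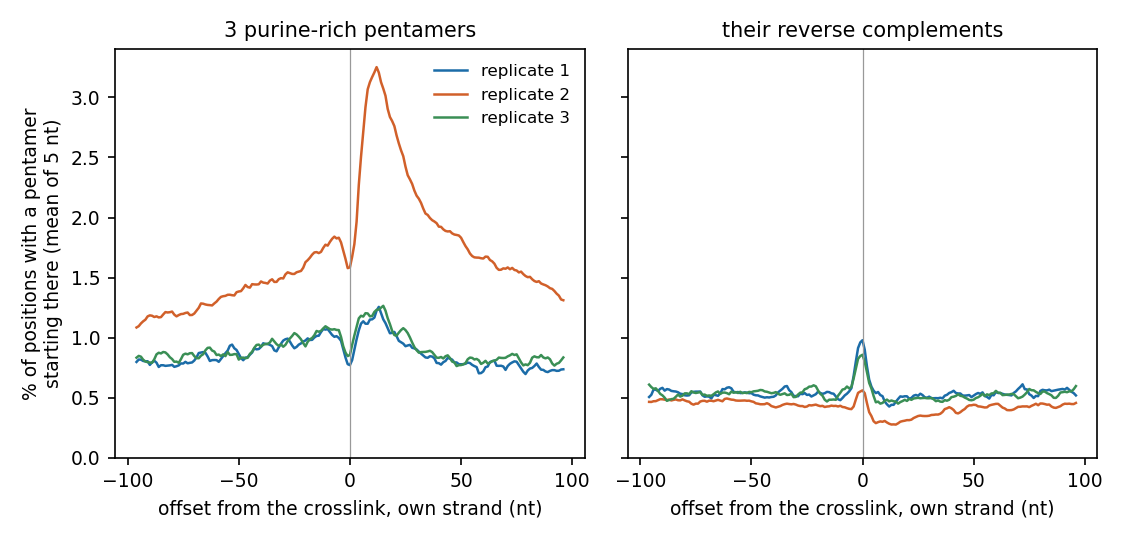
Share of antisense crosslink positions with 1 of 3 purine-rich pentamers (left) or their reverse complements (right) starting at each offset (nt) from the crosslink on its own strand, as a mean over 5 nt; lines are libraries. The purine-rich pentamers peaked 12 to 15 nt downstream, highest in replicate 2 (3.25%), and the reverse complements at the crosslink, highest in replicate 1 (0.979%).

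The 5 pentamers with the highest mean ratio were not GAA sequences. TTCGA had 1.54, 0.970 and 1.91 in replicates 1, 2 and 3, a mean of 1.47 ± 0.47. GTTCG had 1.37, 0.869 and 2.06, a mean of 1.43 ± 0.60. CGGTA had 1.44 ± 0.24 (1.17 in replicate 2) and TCACG 1.43 ± 0.38 (1.07 in replicate 2). These 4 pentamers occur in the clusters that aligned to each other, and their means without the 36 clusters were 1.36 ± 0.39, 1.32 ± 0.52, 1.22 ± 0.15 and 1.24 ± 0.23. TTTTT had 1.46 ± 0.34, and 1.46 ± 0.35 without the clusters. GAAGA had 1.39 ± 0.15 without the clusters, above the means of these 4 and below TTTTT, with overlapping spreads. In replicate 2 the leading pentamer was AAAAA, at 1.70, followed by GAAGA, at 1.56.

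Both strands were rarely crosslinked at the same place. A crosslink of the same library lay on the opposite strand within 5 nt at 0.229%, 0.268% and 0.428% of antisense positions. Per nt, this was 0.0226%, 0.0274% and 0.0529%, against 0.0266%, 0.0241% and 0.0411% at 51 to 100 nt. Replicate 1 was lower near the crosslink than farther away and replicates 2 and 3 were higher, so no common excess was seen. At the 10 leading clusters the opposite strand had 0 crosslinks in every library.

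Antisense crosslinks were distributed over many genes. Of 61770 genes with antisense bases, 19998 had an antisense crosslink, 4136 had one in all 3 libraries (6.7%) and 54 had at least 100. Each crosslink was given to the opposite gene with the nearest start. Protein-coding genes took 69.5% of them and long non-coding RNA genes 29.2%, and 2971 protein-coding genes had one in all libraries (14.5%). The 10 genes with the highest mean CPM held 6.53% of the crosslinks. They were of different kinds, some with nearly all crosslinks at 1 place and others with crosslinks spread over long stretches.

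At Gm36876, Gm37350, Gm44066, Jarid2 and Il1rapl1 most crosslinks lay in the 36 clusters. The clusters held 99.9%, 97.2%, 99.8%, 89.0% and 90.1% of the antisense crosslinks of these genes, for Jarid2 in cluster 5 and in cluster 17 (3, 52 and 5 crosslinks). Fgfr2 was between, with 42.4% in cluster 7 and 45, 234 and 58 antisense crosslinks in all. CPM is not scaled for length, and the density of Fgfr2 was 1.57, 2.49 and 1.79 times that of all antisense sequence. At Il1rapl1 it was 0.288, 5.46 and 0.551 times. At Neb, Cntnap2, Stox1 and Ntm none of the crosslinks lay in the 36 clusters.

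Neb, the gene of nebulin, a giant protein of skeletal muscle thin filaments, had the third highest mean, 398 ± 141 CPM (SD, n = 3). It lies at chr2:52026659-52268486 on the minus strand. It had 126, 343 and 136 antisense crosslinks in replicates 1, 2 and 3, at 586 positions, and 1, 6 and 3 on its own strand. All libraries were high antisense and low sense. The crosslinks were 44.5, 36.9 and 42.3 times as dense as antisense sequence as a whole. They lay toward the end of the gene, with medians of 224423, 233819 and 221339 bp from its start in a body of 241828 bp. The nearest gene ending upstream on the crosslinked strand was Rif1, a protein of DNA replication timing and repair, whose end was 9694 bp before the first of them.

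Stox1, which encodes a winged-helix transcription factor, lies at chr10:62493099-62561921 on the minus strand. It had 66, 183 and 171 antisense crosslinks and 0, 2 and 1 on its own strand. Its mean was 278 ± 81 CPM, and its density was 64.2, 54.2 and 147 times that of all antisense sequence. Few crosslinks lay in the first 20 kb of the gene. The central 80% ran from 24491 to 64144 bp from its start, and the densest 1 kb held 5.95% of the crosslinks. The non-coding Gm66017 ended 4918 bp upstream on the crosslinked strand, and the mean without positions near own-strand genes was 192 CPM.

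Cntnap2 and Ntm are long genes of neural cell adhesion, a contactin-associated protein and neurotrimin, at chr6:45036291-47281147 on the plus strand and chr9:28906045-29874437 on the minus strand. Cntnap2 had 118, 223 and 96 antisense crosslinks beside 80, 244 and 85 on its own strand, so neither strand was clearly above the other. Its antisense density was 3.62, 2.08 and 2.60 times that of all antisense sequence, far below Neb and Stox1. The antisense crosslinks had a median of 1931074 bp from the gene start and the central 80% lay between 1550924 and 1968892 bp. Ntm had 70, 216 and 63 antisense and 3, 27 and 10 on its own strand, with antisense above own strand in all libraries. Their central 80% lay between 811353 and 925326 bp from its start. Their density was 4.90, 4.60 and 3.89 times that of all antisense sequence. In both, most crosslinks lay in a stretch of the later part of the gene in which no 1 kb held more than 4.30% of them.

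**Figure D5:**
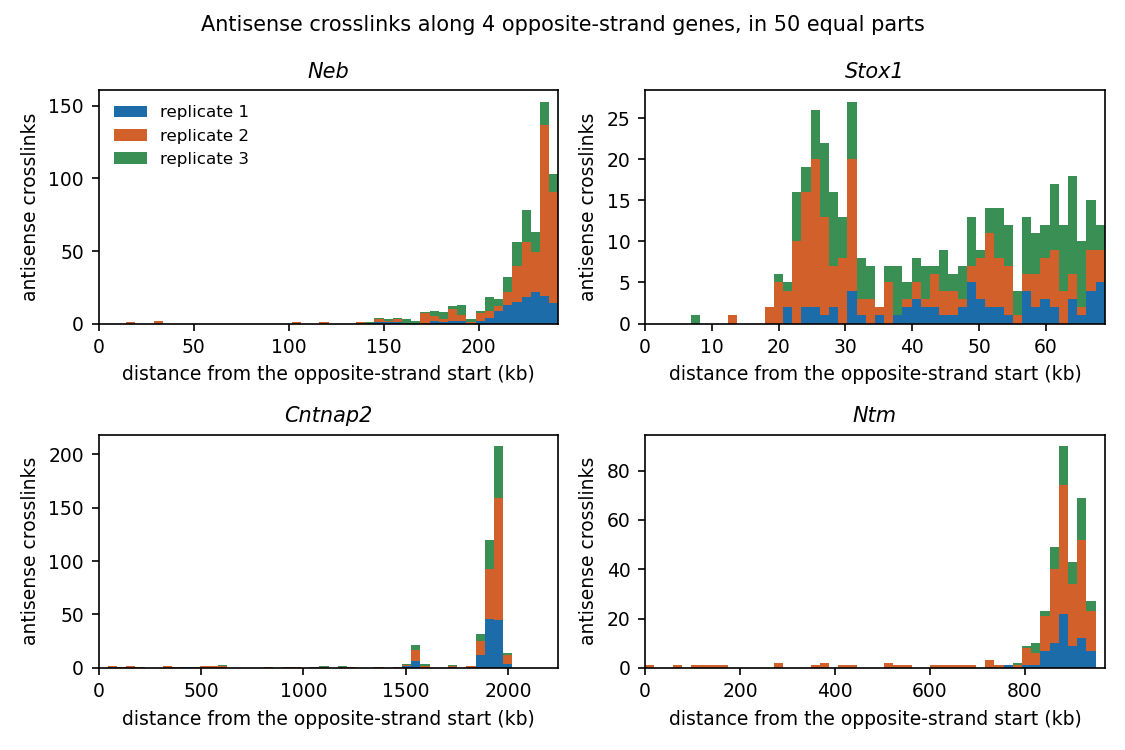
Antisense crosslinks along 4 opposite-strand genes, each divided into 50 equal parts, by distance from the start of the gene (kb); bars stack the counts of the 3 libraries. Crosslinks were broad and lay toward the gene end in Neb, Cntnap2 and Ntm, with medians of 228643, 1931074 and 885630 bp, and the central 80% of those in Stox1 lay between 24491 and 64144 bp.

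Genes of the testis were also examined as opposite-strand genes. Of 27 meiosis genes with antisense bases, 8 had antisense crosslinks in all 3 libraries (29.6%, against 14.5% of protein-coding genes). Per kb of antisense bases they had 0.104 crosslinks, against 0.0820 for all antisense sequence. Msh4, a MutS homologue of meiotic recombination, had 2, 12 and 4 antisense crosslinks beside 9, 13 and 12 on its own strand. Piwil1, a piRNA-binding protein, had 5, 11 and 2 beside 46, 41 and 66. Hormad2, of the meiotic chromosome axis, had 1, 7 and 2 beside 53, 78 and 67.

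Of 19 spermatid genes, 3 had antisense crosslinks in all libraries (15.8%), with 0.101 per kb. Odf2, of the sperm tail outer dense fibres, had 3, 3 and 1 antisense crosslinks beside 359, 233 and 785 on its own strand. Acrv1, an acrosome protein, had 1, 3 and 2, and Crem, a regulator of spermatid transcription, had 0, 4 and 1. Of 12 somatic testis genes 0 had crosslinks in all libraries, and they had 0.0462 per kb. Wt1, a Sertoli cell transcription factor, had 0, 4 and 0, Star, which imports cholesterol into mitochondria, had 0, 2 and 1, and Cyp11a1, the first enzyme of steroid synthesis, had 0, 2 and 0.

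SR protein genes, which include Tra2b and its relatives, have few antisense bases (119620 in all). Of 10 with any, 0 had crosslinks in all libraries, and the 12 crosslinks in total came to 0.100 per kb, close to the meiosis and spermatid genes. Srsf9 had 0, 2 and 1 antisense crosslinks beside 11, 8 and 12 on its own strand, Srsf5 had 0, 2 and 0 beside 15, 30 and 20, and Srsf7 had 0, 2 and 0 beside 25, 35 and 34. Differences between the lists were not tested, and many of the counts per gene are low.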

How the data were processed

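For each of 3 iCLIP libraries, the authors deposited a count of unique cDNAs for each crosslinked nucleotide and strand (mm39, which is GRCm39), made with the iMAPS pipeline. The submitters' processing notes name Trim Galore 0.6.7, Bowtie 1.3.1, STAR 2.7.9a and UMI-tools 1.1.2. How multi-mapping reads were handled is not given in the sources used here. Each deposited file holds 1 library with counts that carry no scaling.

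Positions were assigned with GENCODE vM39, using all genes. Bases were counted by the same rule over both strands without undetermined bases. First kb came before exon and exon before intron. CPM scales crosslinks to a library total of 1000000. Clusters were joined over the 3 libraries and ranked by their summed count, and distances within a gene given as 1 value are over the libraries together. Clusters were matched to GENCODE transcripts and to each other with blastn 2.17.0. The pentamer ratio sets the share within 30 nt over that 31 to 100 nt away. Errors are SD over 3 libraries and cover this spread only, and shares of 1 library carry counting error only. The assignment was checked on simulated data (13600 checks, 0 mismatches). Python 3.11.15 was used.

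The members, gene lists and tests were chosen with earlier results of these data known. Named were the 10 clusters with the most crosslinks among those with at least 3 in each library, the 10 opposite genes with the highest mean CPM, the 5 pentamers with the highest mean ratio with 3 GAA pentamers and their reverse complements, and from each list the 3 genes with the most antisense crosslinks. The distance bins past own-strand ends, the cluster groups, the B box word and the X chromosome ratio were chosen after seeing the data, as were the settings with single-copy sequence only and without clusters or cluster 3. Of 30 meiosis symbols 1 was not found in the annotation. The sequence and counts of 1 of the 10 leading clusters are not reported here.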

Additional observations from a re-analysis of the deposited data

How the results depend on the processing

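Over all alternatives run, each ratio kept its side of 1 except that of TCTTC, which lay close to 1 throughout. Of the main results, 74 values moved by less than the spread between libraries (SD) or, for counts, by less than 1.5 times. For means, this was fixed in advance where 1 library was left out, since that cannot move a mean of 3 by its SD. Those settings therefore give the range only and are no check of stability. The other 10 were as follows. The ratio of antisense exons to introns was 1.297 without positions within 5 kb past an own-strand gene end or 1 kb before a start. The fold past own-strand gene ends was 3.78 within 1 kb and 2.35 within 10 kb. There were 178 clusters with at least 1 crosslink in each library. The share of positions with an opposite-strand crosslink was 0.0325% at the same nucleotide and 0.976% within 20 nt. Clusters and genes called on only 2 libraries were more, by construction. Without 1 library in turn there were 45 to 58 clusters and 4531 to 6580 opposite-strand genes, the antisense share was 5.32% to 8.37%, the first kb over introns 1.70 to 2.16, exons over introns 1.47 to 1.64, the first kb over sequence beyond 50 kb 1.94 to 2.54, the fold within 5 kb 2.74 to 3.14, GAAGA 1.31 to 1.45, TCTTC 0.950 to 1.00 and the opposite-strand share within 5 nt 0.248% to 0.348%. Without replicate 2 the CPM of Il1rapl1 was 21.9 against 215, of Jarid2 52.2 against 235 and of Gm37350 179 against 537. Only positions followed by a single-copy 31-mer gave 28 clusters, a share of 6.95% and a first kb ratio of 2.02. The planned settings that leave out repeats were not run, because the genome used marks none. No paired analysis was possible because there is 1 group. Depth limits single positions, nearly all of which had 1 cDNA, and low counts per gene.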
